A study of Mus musculus with 11 samples.

Results

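The genes described here are the nuclear genes of the mitochondrial respiratory chain and ATP synthase. They were taken by name, as all probes whose platform gene symbol begins with Nduf, Sdha to Sdhd, Uqcr, Cox4 to Cox8 or Atp5. The rule found 142 probes of 91 genes among the 45281 probes and 19057 singly named genes of the array. Of these, 114 probes of 81 genes were detected on all 11 arrays, among 16411 probes and 8967 genes detected in all, and the other 10 genes are accounted for separately.

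The respiratory chain sits in the inner mitochondrial membrane and passes electrons from NADH (complex I) and succinate (complex II) through ubiquinone, complex III and cytochrome c to oxygen at complex IV. The protons pumped along the way drive ATP synthase, called complex V. A small core set of subunits is encoded in mitochondrial DNA, while the other subunits and the assembly factors come from the nucleus, and proliferating progenitors and differentiating neurons are known to differ in how far they rely on this route or on glycolysis.

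RNA came from EGFP-labeled intermediate progenitors (IPs), the TBR2-expressing cells between radial glia and neurons, sorted from Tbr2 conditional knockout mouse cortex on embryonic days 13 and 16 (E13, 5 arrays; E16, 6 arrays). The mice carried the Tbr2-EGFP reporter and floxed Tbr2 alleles (Tbr2 fl/fl). The Cre driver of the sorted cells is not stated for the arrays; the methods name Emx1-Cre, which acts in the cortical radial glial lineage, for cortical knockouts. The array signals of littermate controls were not analysed here, so every comparison below sets E16 against E13 within the mutant, and none measures the effect of losing TBR2. Each array is described as a biological replicate, but the 3 litters are not assigned to samples. Arrays of 1 litter may resemble each other more than arrays of different litters, and p-values may then be too small.

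Values are bead array signals in arbitrary units after background subtraction and quantile normalization between arrays, and each gene is represented by its brightest probe detected on all arrays. A gene was called changed at an adjusted p under 0.05 in limma, adjusted over all probes tested, together with a change over 1.5-fold. Log2 fold changes are E16 over E13, so that negative values are lower at E16. Eomes, the gene of TBR2, averaged 2534 ± 172 (SD, n = 5) on E13 arrays against 1951 ± 558 (SD, n = 6) on E16 arrays. Whether its probe lies in the deleted part is not known here, so it checks no label. Of 10 IP marker genes, 9 were detected on every array, and their mean log2 signal was 9.63 to 10 on E13 arrays and 8.96 to 9.60 on E16 arrays. Of these 9, 8 were lower at E16, 2 of them called, and 1 was called higher, with a median log2 fold change of -0.54. Markers of newborn and cortical neurons were also detected on every array, at 11.1 to 11.4 on E13 arrays and 11.1 to 11.6 on E16 arrays. The 9 radial glial markers lay at 6.67 to 8.06 on E13 arrays and 6.48 to 7.11 on E16 arrays. Of the 6 tested, Vim, an intermediate filament gene, fell by 1.77 on the log2 scale (limma adjusted p = 3.28e-05), and Nes, another, by 0.71 (limma adjusted p = 0.0107), while the glutamate transporter gene Slc1a3 rose by 1.58 (limma adjusted p = 0.00315). The part of these marker changes in the values below was not tested. In sorted bulk cells, a change in the make-up of the cells and a change in RNA per cell cannot be told apart. The sex of the embryos is not given in the labels. Xist, an RNA of female cells, was detected on 2 of 5 E13 arrays and 5 of 6 E16 arrays, so sex may be unevenly spread over the stages.

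Respiratory chain genes differed little between E13 and E16. Of the 81 genes tested, 1 was called, Ndufv3, while 12.3% of all genes tested were called. At an adjusted p under 0.05 with no fold threshold, 3 were past it, Ndufv3, Ndufb7 and Atp5b, all lower at E16, beside 20.5% of all genes in either direction and 11% lower. That count depended on single arrays. It was 8 without E16 array 95, it was 1 without E13 array 37, 61 or 64, and it was 2 or 3 without any of the others. At an unadjusted p under 0.05 there were 12, or 14.8% of the members, and all 12 were lower at E16, beside 34.4% of all genes in either direction and 18% lower. The mean absolute log2 fold change was 0.14 over the members and 0.33 over all genes tested. In 70 of 81 members (86.4%) the 95% interval of the change lay wholly within 1.5-fold in either direction, which held for 54.5% of all genes. The median standard error was 0.12 for the members and 0.15 for all genes. Many members were far brighter than the median of the probes tested, which ran from 180.7 to 422.3 over arrays before normalization. Members were not compared with genes of like signal.

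**Figure D1:**
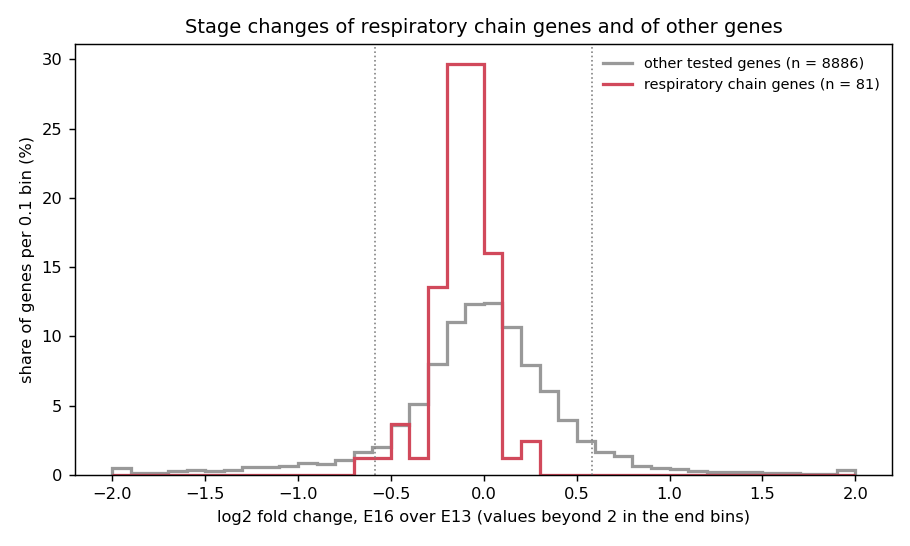
Share of genes (%) per 0.1 bin of the log2 fold change of E16 over E13, for the 81 respiratory chain genes and for the other genes tested in Tbr2 mutant IPs. The members lie between -0.65 and 0.26, with most of them between -0.3 and 0.1, and the dotted lines mark a 1.5-fold change.

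Most of these small differences pointed the same way. A total of 65 members had a negative log2 fold change and 16 a positive one, so 80.2% were lower at E16 on this scale, beside 50.5% of all genes tested. The median log2 fold change was -0.10 over the members and -0.00 over all genes. The quantile-normalized shift was smaller than the spread of single arrays, since the median deviation of the members from their mean over arrays varied between arrays of 1 stage with an SD of 0.13. With the arrays scaled to a common median in place of quantile normalization, the median over the members was -0.18. The quantile-normalized shift also rested largely on 1 array. Without E16 array 11, the median over the members was -0.04, and 63% of them were lower at E16.

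On 6 of the 11 arrays, most respiratory genes deviated in the same direction from the median of their stage. On E16 array 11, 76 of 81 members lay below it, including all 33 tested genes of complex I, and the median deviation was -0.34, and on E16 array 15, 60 lay below it. On E16 arrays 91 and 95, by contrast, 65 and 64 members lay above it. For E13, 55 members lay above the stage median on array 40 and 55 below it on array 65. The other arrays were closer to an even split, with 33 above and 29 below on E13 array 37, 31 and 32 on array 61, 33 and 34 on array 64, and 46 and 35 on E16 array 80, 42 and 39 on array 97. The median deviation ran from -0.05 to 0.17 over E13 arrays and from -0.34 to 0.10 over E16 arrays, so the stages overlapped. Over all probes tested, the same measure stayed between -0.04 and 0.02 on every array.

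E16 array 11 also had the lowest mean signal before normalization, 230.3, against 337.3 to 503.1 on the other E16 arrays and 352 to 435.4 on E13 arrays. Its markers of IPs, at a mean log2 signal of 9.27, and of neurons, at 11.4, lay within the range of the other E16 arrays, and markers of meninges were at the floor. The part of the low signal in these values was not tested on this array alone. With mean array signal as a covariate, 69.1% of members were lower at E16 and the median was -0.08.

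**Figure D2:**
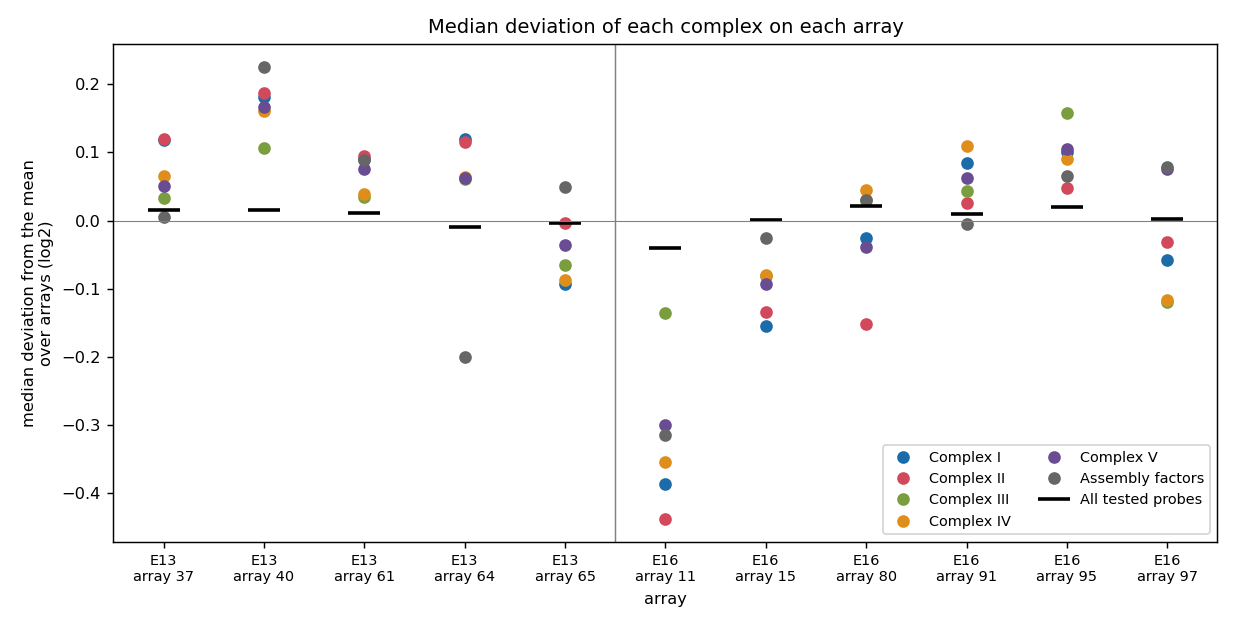
Median deviation (log2) of the genes of each complex and of the assembly factors from their mean over arrays, for each of the 5 E13 and 6 E16 arrays, with all probes tested as black bars. All groups lie lowest on E16 array 11 (-0.44 to -0.14), and the E13 and E16 arrays overlap in every group.

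Taken complex by complex, the median log2 fold changes ran from -0.20 to -0.01, and the differences between complexes were not tested. Complex I, with 33 of 34 genes tested, had a median log2 fold change of -0.13, and 28 of its genes were lower at E16. The spread between arrays of its median, an SD of 0.15, was as large as this change. Its 5 tested core subunits, which carry the redox centers and have bacterial counterparts, had a median of -0.09 and a range of -0.15 to -0.03. The 28 accessory subunits had a median of -0.15 and a wider range of -0.65 to 0.26.

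For complex II, succinate dehydrogenase, all 3 tested genes of 4 were lower, with a median of -0.20 and an SD between arrays of 0.14. Complex III, the cytochrome bc1 complex, had 3 of 6 tested genes lower and 3 higher, with a median of -0.01 and an SD between arrays of 0.10. Its subunit cytochrome c1 (Cyc1) lies outside the named prefixes and is not counted here. Complex IV, cytochrome c oxidase, had 9 of 11 tested genes lower, a median of -0.10 and an SD between arrays of 0.14. The median of the 16 genes of complex V was -0.07, with 12 lower and an SD between arrays of 0.12. Among 11 assembly factors of complexes I and II, 9 were lower, with a median of -0.03 and an SD between arrays of 0.15. The probe of Ndufs5-ps, annotated as a pseudogene of the complex I subunit Ndufs5, belongs to no complex here and had a log2 fold change of -0.27 (SE 0.116, limma adjusted p = 0.129).

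Leaving out E16 array 11 brought most of these medians closer to 0. Without it, the medians were -0.04 for complex I, -0.17 for complex II, 0.01 for complex III, -0.04 for complex IV, -0.03 for complex V and 0.03 for the assembly factors, so the sign turned for complex III and for the assembly factors. E13 array 64, on which markers of erythroid, endothelial, meningeal, microglial and radial glial cells and of interneurons were highest, had the lowest median of the assembly factors among E13 arrays, -0.20, and 9 of 11 of them lay below their stage median. Erythroid markers there had a mean log2 signal of 9.93 with 6 of 6 detected, against 6.49 at most on an E16 array. Without this array the median of the assembly factors was -0.12, and the part of those cells was not tested further.

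**Figure D3:**
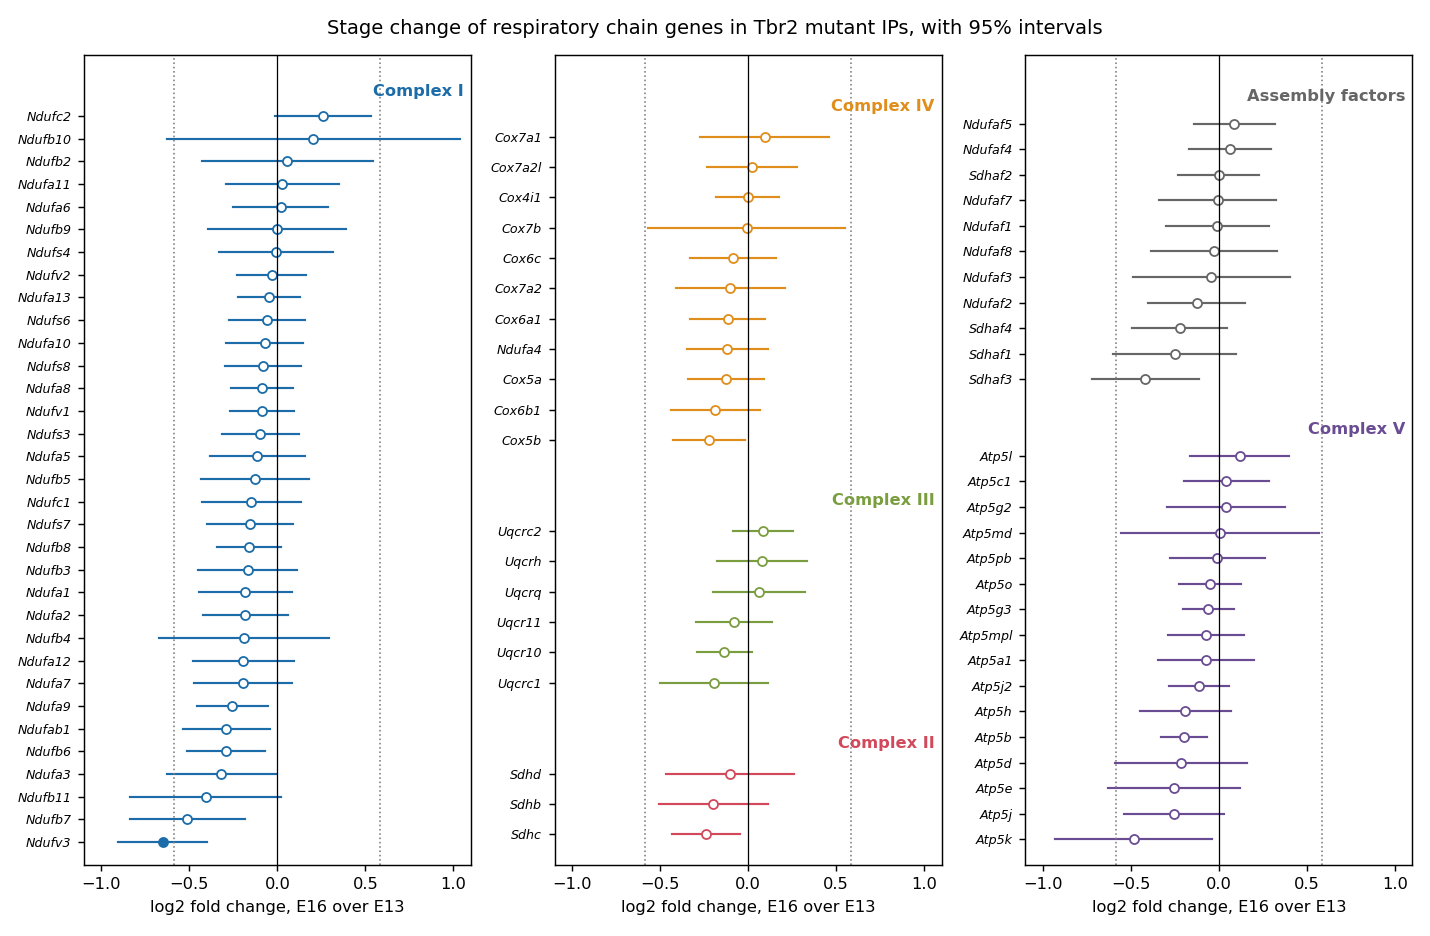
Log2 fold change of E16 over E13 with its 95% interval for the tested genes of complexes I to V and the assembly factors (Ndufs5-ps is not drawn). Filled circles mark genes past both thresholds, which only Ndufv3 is, and dotted lines mark a 1.5-fold change.

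Ndufv3 was the exception. It encodes an accessory subunit of the NADH-oxidizing module at the tip of complex I. Its signals were 4905, 5071, 4262, 5028 and 3969 on the E13 arrays and ran from 2403 over a median of 2876 to 3641 on the E16 arrays. Every E13 array was above every E16 array, a separation found for 14% of all genes tested and for no other member among the 81 tested. The means were 4647 ± 499.9 (SD, n = 5) and 2977 ± 503.7 (SD, n = 6), which gives a log2 fold change of -0.65 (SE 0.117, 95% interval -0.90 to -0.40, limma adjusted p = 0.00159).

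The other probes of Ndufv3 gave the same picture. A second bright probe had a log2 fold change of -0.63 (SE 0.108, limma adjusted p = 0.00123), with E13 arrays from 3518 to 4645 and E16 arrays from 2095 to 2911. On a remaining, dim probe the mean was 63.97 at E13 and 32.1 at E16, a log2 fold change of -1.01 (SE 0.204, limma adjusted p = 0.00374). All 3 probes separated the stages without overlap, as did 11.7% of all probes. Ndufv1 and Ndufv2, the core subunits of the same module that bind NADH and pass on its electrons, had log2 fold changes of -0.09 (95% interval -0.27 to 0.09) and -0.03 (95% interval -0.23 to 0.16). The difference between Ndufv3 and these partners was not tested.

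The sequence before the annotated start of Ndufv3 is given because this is the member that changed, with 250 bases up to the start (RefSeq, GRCm38.p6, chr17:31519865-31520114, plus strand). It is in lower case throughout, since it holds none of the letters searched for below.
Ndufv3: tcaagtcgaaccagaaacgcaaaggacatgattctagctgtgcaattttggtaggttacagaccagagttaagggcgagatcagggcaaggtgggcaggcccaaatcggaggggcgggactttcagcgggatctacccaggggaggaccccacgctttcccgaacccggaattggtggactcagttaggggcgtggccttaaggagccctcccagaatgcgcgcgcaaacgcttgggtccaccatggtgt

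Promoters of respiratory genes are known for binding sites of NRF1, of the ETS factor GABP (also called NRF2) and of YY1. RefSeq promoter windows, from 250 bases before to 50 after the start, were matched for 76 of the 91 members. The letters GCGCANGCG, a core of the NRF1 site, were found on either strand in 22 of these windows (28.9%), beside 6.47% of all 27025 windows. CCGGAAG, an ETS core, was in 20 (26.3%, beside 9.12%), and AANATGGCG, a YY1 core, in 10 (13.2%, beside 2.51%). No match of 1 of these cores overlapped a match of another in a member window. Together 42 of 76 members (55.3%) held at least 1 of them, against 16% of all windows. All windows include those of genes not detected here. Members were not compared with detected genes or with windows of like base content.

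The 4 stretches below show the NRF1 letters (capitals, with flanking bases; where both strands match, 1 more base is in capitals) before the start of 1 member each of complexes I, II, IV and V, on the strand of the gene. They are Ndufa11 (chr17:56717692-56717720, plus strand), Sdhd (chr9:50603910-50603938, minus strand), Cox6a1 (chr5:115349102-115349130, minus strand) and Atp5g2 (chr15:102671071-102671099, minus strand).
Ndufa11: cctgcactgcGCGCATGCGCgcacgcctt
Sdhd: tcgctggggtGCGCACGCGcggtggcagc
Cox6a1: caggaacgggGCGCATGCGCgctctcgct
Atp5g2: ggctccggccGCGCATGCGCagagccttc
Where several tested members of a complex held the letters before the start, the one with the smallest absolute change is shown. None of the 4 was called, with log2 fold changes of 0.03, -0.10, -0.12 and 0.04, and small values follow in part from this choice. The 21 tested members with the NRF1 letters ran from -0.48 to 0.20. Their median was -0.08 and that of the 50 without them -0.13, and the medians with and without the ETS letters were both -0.11. For the YY1 letters the 10 members with them had a median of -0.13 and the 61 without them one of -0.10. All 10 were lower at E16, from -0.41 to -0.0016, beside 80.2% of all members tested. No difference by motif was tested. A match of letters is a description of the window and shows no bound factor.

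Among the other accessory subunits of complex I, Ndufb7, of the membrane arm, came nearest to a call. Its signals were 571, 577, 502, 543 and 398 on the E13 arrays, against 280 to 481 with a median of 365 on the E16 arrays. The stages overlapped, with E13 array 65 below E16 arrays 91 and 95. The log2 fold change was -0.51 (SE 0.153, limma adjusted p = 0.0331), short of 1.5-fold. Ndufb7 passed both thresholds without E13 array 65, at -0.60, and without E16 array 95, at -0.595. It was not past the adjusted p without E13 array 37, 40, 61 or 64 or E16 array 11, 15 or 97 (limma adjusted p up to 0.0847).

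Ndufab1, the mitochondrial acyl carrier protein that is also a complex I subunit, was read by 4 probes. Its 3 brighter probes had log2 fold changes of -0.29, -0.30 and -0.24 (limma adjusted p = 0.098, 0.108 and 0.279). A dim probe had -0.67 (limma adjusted p = 0.0246), with 58.75 ± 8.67 (SD, n = 5) on E13 arrays against 37.49 ± 8.15 (SD, n = 6) on E16 arrays, and was called. With the 3 probes of Ndufv3 it makes 4 called probes of 114, beside 11.3% of all probes.

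Ndufc2, a membrane arm subunit, had the most positive change of the members. Its E13 signals were 3604, 3790, 4158, 3664 and 3563, and its E16 signals ran from 3543 over a median of 4527 to 6163. On 4 of 6 E16 arrays it was above every E13 array, while arrays 11 and 15 were within or below the E13 range. The log2 fold change of 0.26 (SE 0.127, limma adjusted p = 0.179) did not pass the test. Both of its probes were higher at E16, by 0.26 and 0.32.

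The core subunits of complex I showed still less. Ndufv1, the flavoprotein that takes electrons from NADH, averaged 5290 ± 335 (SD, n = 5) on E13 arrays against 4992 ± 531 (SD, n = 6) on E16 arrays. The iron-sulfur subunits Ndufs7 and Ndufs8 and the peripheral arm subunit Ndufs3 had log2 fold changes of -0.15, -0.08 and -0.10, with limma adjusted p of 0.388, 0.62 and 0.553.

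In complex II, the membrane anchor Sdhc had signals of 2272, 2381, 2407, 2105 and 2206 at E13 and of 1544 to 2130, with a median of 2004, at E16. The groups overlapped only through E13 array 64 and E16 array 91. The log2 fold change was -0.24 (SE 0.091, limma adjusted p = 0.0862). Sdhb, the iron-sulfur subunit, had -0.20 (limma adjusted p = 0.38), and the other membrane anchor, Sdhd, -0.10 (limma adjusted p = 0.724). For Sdhb, E16 array 95 stood above the other E16 arrays at 2419.

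Among the 6 tested genes of complex III found by the rule, the core proteins Uqcrc1 and Uqcrc2 had the most negative and the most positive change. Cyc1, the subunit outside the named prefixes, was lower than either, at -0.30 (limma adjusted p = 0.0686). Uqcrc1 averaged 3169 ± 744 (SD, n = 5) on E13 arrays against 2730 ± 339 (SD, n = 6) on E16 arrays, a log2 fold change of -0.19 (SE 0.142, limma adjusted p = 0.378). Its E13 arrays alone spread from 2418 to 4165, a range that takes in 5 of the 6 E16 arrays. Uqcrc2 averaged 5754 ± 609 (SD, n = 5) and 6086 ± 357 (SD, n = 6), a log2 fold change of 0.09 (SE 0.080, limma adjusted p = 0.506).

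Among the genes of cytochrome c oxidase, Cox4i1, the common isoform of subunit 4, had signals of 8684, 8228, 8164, 8244 and 8228 at E13 and of 7011 to 9810, with a median of 8272, at E16. The E13 arrays lay inside the E16 range. The log2 fold change was -0.00 (SE 0.083, limma adjusted p = 0.989), with a 95% interval of -0.18 to 0.18, or 0.882 to 1.13 of the E13 level. Cox5a, a matrix-side subunit, had -0.13 (limma adjusted p = 0.422). Cox5b had the most negative change of the complex, -0.22 (SE 0.095, limma adjusted p = 0.126), at 10121 ± 901 (SD, n = 5) against 8704 ± 1073 (SD, n = 6).

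The isoforms of complex IV differed in whether they were detected at all. The common isoforms Cox4i1, Cox6a1, Cox6b1 and Cox7a2 were detected on all arrays, with log2 fold changes of -0.00, -0.12, -0.19 and -0.10 and no call. The lung isoform Cox4i2, the muscle isoforms Cox6a2 and Cox8b and the testis isoforms Cox7b2 and Cox8c were detected on 0 of 11 arrays. Cox7a1, the heart and muscle isoform of subunit 7A, was detected throughout at 83.7 ± 8.20 (SD, n = 5) and 90.7 ± 18.1 (SD, n = 6), a log2 fold change of 0.09 (limma adjusted p = 0.752). Ndufa4, once ascribed to complex I and now counted with complex IV, had -0.12 (limma adjusted p = 0.492).

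Cox6b2, the testis isoform of subunit 6B, was detected at 1 stage only. Its probe had background-subtracted signals of 33.83, 48.65, 20.97, 44.7 and 29.06 on the E13 arrays, all detected, and of -8.86 to 19.01 on the E16 arrays, none detected. Every E13 array was above every E16 array, with 20.97 as the lowest against 19.01 as the highest. This follows largely from detection at 1 stage only, and 11.7% of the probes detected on all arrays also separated the stages. Taking the lowest detected signal of each array as the E16 bound, Cox6b2 was on average at least 1.92-fold higher at E13. Its signals lay near background, and the bound is set by detection. A second Cox6b2 probe was detected on 0 arrays, and over the whole array 67 probes were detected on all E13 and no E16 arrays and 33 the other way.

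For ATP synthase, all 16 genes found by the rule were tested. Atp5b, the catalytic beta subunit, had signals of 22592, 19626, 21023, 20696 and 21784 at E13 and of 17271 to 19900, with a median of 18627, at E16. The stages overlapped only through E13 array 40 and E16 array 15. The change was small and past the adjusted p alone, with a log2 fold change of -0.20 (SE 0.061, limma adjusted p = 0.0388) that lay under 1.5-fold with its whole 95% interval, -0.33 to -0.07. It was not past the adjusted p without E13 array 37, 61, 64 or 65 or E16 array 80, 91 or 97 (limma adjusted p up to 0.103).

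Other parts of the enzyme showed no call. The alpha subunit Atp5a1 was read by 2 probes that disagreed in sign, with -0.07 (limma adjusted p = 0.74) on the brighter and 0.49 (limma adjusted p = 0.1) on the dimmer one. Atp5k, subunit e of the dimer interface, had the most negative change of the complex, -0.48 (SE 0.207, limma adjusted p = 0.126), from dim signals of 56.7 ± 15.1 (SD, n = 5) and 40.2 ± 8.22 (SD, n = 6). Atp5l, subunit g of the same interface, had the most positive one, 0.12 (SE 0.131, limma adjusted p = 0.582). Atp5g2 and Atp5g3, which encode the same rotor subunit c, had 0.04 and -0.06. Of the 26 members with several tested probes, 20 had all probes of 1 sign, and the median range between probes of 1 gene was 0.10.

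**Figure D4:**
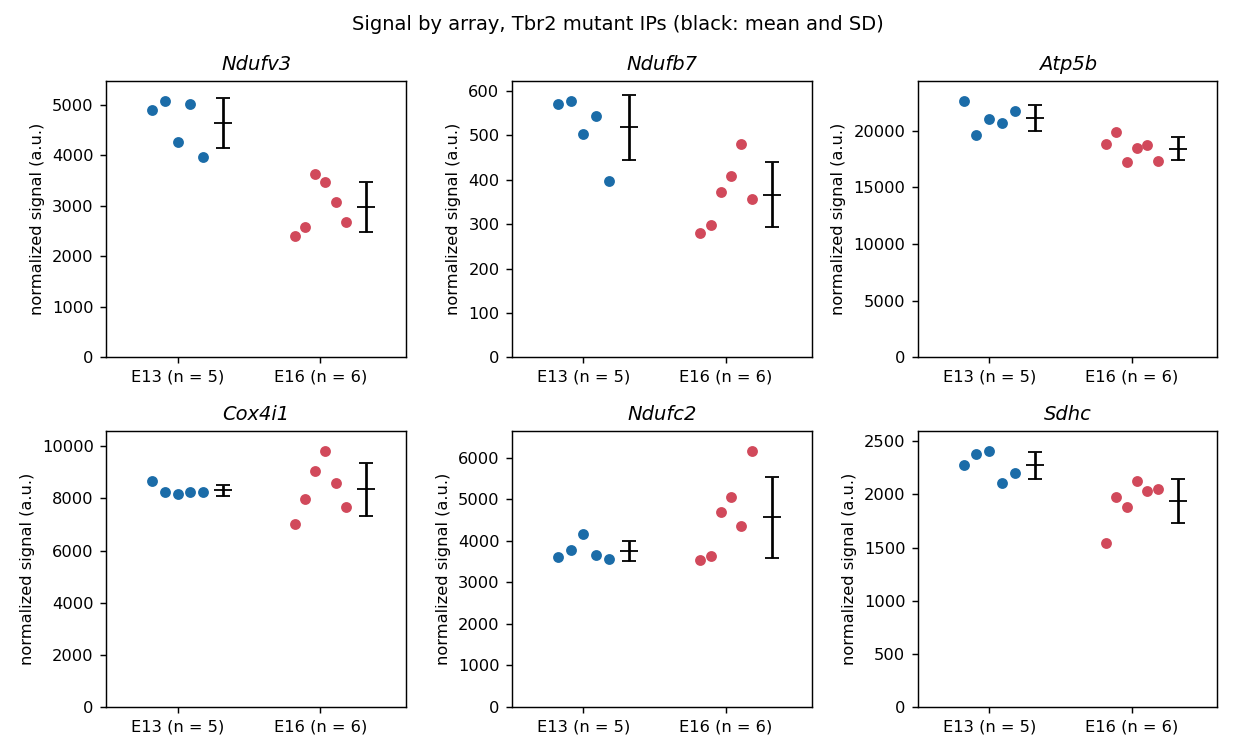
Quantile-normalized signal (arbitrary units, axes from 0) of 6 respiratory chain genes on each E13 and E16 array, with the mean and SD in black. The E13 and E16 arrays of Ndufv3 do not overlap, while those of Ndufb7, Atp5b, Cox4i1, Ndufc2 and Sdhc do.

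Among the assembly factors, Sdhaf3, needed for succinate dehydrogenase assembly, had the most negative change, -0.42 (SE 0.141, limma adjusted p = 0.0554), at 508 ± 71.4 (SD, n = 5) against 382 ± 64.4 (SD, n = 6). By their brightest probes, the complex I assembly factors Ndufaf1 to Ndufaf5, Ndufaf7 and Ndufaf8 lay between -0.13 and 0.09. Dimmer probes of Ndufaf4 and Ndufaf5 had 0.23 and 0.26, without a call. Besides the isoforms above, 4 members had no probe detected on all arrays. Ndufs1, the largest core subunit of complex I, Sdha, the flavoprotein of complex II, and Ndufaf6 each had 1 probe, detected on 0 of 11 arrays, with signals no higher than 3.50, 4.01 and 6.55. The 2 probes of Uqcrfs1, the Rieske iron-sulfur protein, were detected on 4 and 1 arrays. A probe at background gives no level for its gene. Atp5g1, Cox8a and Ndufa4l2 were not analysed here.

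Genes around the chain were taken from 7 lists. Of 32 tested assembly factors and partners outside the named prefixes, 0 were called, with a median log2 fold change of -0.10, and 24 were lower at E16. Cytochrome c (Cycs), singled out after its value was seen because it links complexes III and IV, had -0.41 (limma adjusted p = 0.0259), under 1.5-fold. Protein import (20 tested, median -0.09) and inner membrane carriers (13 tested, median -0.23) also held 0 called genes, beside 12.3% of all genes tested. At an unadjusted p under 0.05 in limma, 6, 5 and 7 genes of these 3 lists passed, beside 34.4% of all genes, a share that only the carriers exceeded, and the unmoderated test also called 0 in each.

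In the lists of regulators and of the tricarboxylic acid cycle, the share of called genes was no higher than the 12.3% of all genes tested. Of 18 tested regulators of mitochondrial biogenesis, 2 were called. Gabpa, the DNA-binding subunit of GABP, rose from 47.6 ± 11.8 (SD, n = 5) to 73.0 ± 11.1 (SD, n = 6), a log2 fold change of 0.64 (limma adjusted p = 0.0331), and Tfb1m, a methyltransferase of mitochondrial ribosomal RNA, fell by 0.83 on the log2 scale (limma adjusted p = 0.00393). Among 19 genes of the tricarboxylic acid cycle and pyruvate dehydrogenase, 2 were called, both lower. They are Suclg2, a subunit of succinyl-CoA ligase, at -0.92 (limma adjusted p = 0.0219), and Pdk3, a kinase that inhibits pyruvate dehydrogenase, at -0.67 (limma adjusted p = 0.00449).

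Of 16 genes of glycolysis and lactate dehydrogenase, 3 were called, all higher at E16, beside 12.3% of all genes tested in either direction. The list's median was nevertheless -0.20, and 11 of its genes had a negative log2 fold change. The lactate dehydrogenase subunit Ldhb had 0.78 (limma adjusted p = 0.011), the glucose transporter Slc2a3 had 0.64 (limma adjusted p = 0.00062) and the neuronal enolase Eno2 had 0.63 (limma adjusted p = 0.00306). Another 4 enzymes of the pathway were past the adjusted p in the other direction, each by less than 1.5-fold. Of all genes tested, 11% were past it and lower at E16. The 4 enzymes were Tpi1 at -0.48 (limma adjusted p = 0.000547), Pgk1 at -0.51 (limma adjusted p = 0.00372), Gapdh at -0.36 (limma adjusted p = 0.0106) and Pgam1 at -0.39 (limma adjusted p = 0.0314). The stages did not overlap for the first 3, as for 14% of all genes tested. The largest change in these lists was that of Oma1, a protease of the inner membrane, among 13 genes of mitochondrial fission and fusion. Its signals were 265.3, 405.8, 278.3, 327.2 and 263.8 at E13 and from 877.5 to 1835 at E16, with no overlap. The log2 fold change was 2.03 (SE 0.170, limma adjusted p = 5.72e-06), and no other gene of that list was called, beside 12.3% of all genes tested.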

How the data were processed

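RNA of sorted IPs was hybridized to Illumina bead arrays. The authors deposited background-subtracted signal intensity for each probe before normalization between arrays, with a detection p-value beside it, and a quantile-normalized table whose log base, not stated, was found to be log2 against the signals. Arrays were grouped by stage from labels and column names; array numbers could not be tied to replicate numbers. A further deposited table holds 22 per-sample columns for littermate controls (11 signals, each with its p-value); none was used, since these arrays are no samples of this series.

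Signals of the probes that all 11 arrays detected (p under 0.05) were quantile-normalized and log2-transformed. The model was fitted in R 4.3.3 by limma 3.58.1, with stage as the only term, a mean-variance trend and Benjamini-Hochberg adjustment over all 16411 probes. This replaces the methods' analysis of variance, whose genotype factor was left out together with the control arrays. Their removal of outlier probes was not repeated. Thresholds were those of the methods. The fit was tested on simulated data. Probes were named by the platform annotation, in which 34885 probes have 1 gene symbol, 18 several and 10378 none. Markers used quantile-normalized signals of all probes with a floor of 16, at which log2 is 4.

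Named genes were members past both thresholds, the extremes of each complex, core subunits, isoform pairs and undetected members, and outside the members, from each list, at most 2 called genes in either direction; Ndufb7, Ndufab1, Sdhaf3, Cycs, Eno2, Oma1's array values and other genes were added after their values were seen. Members and lists were chosen with earlier results of these data known. Alternatives were median scaling, neqc, other detection rules, the authors' log2 values with and without a replicate block, an unmoderated test, no fold threshold, array weights, covariates, the mean over probes and leaving out arrays. The number of arrays limits the precision.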

Additional observations from a re-analysis of the deposited data

Results flagged for a closer look

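In 5 of 58 groups of values, 1 array stood apart from the others by more than the usual limit for its gap (gap over range above 0.710 for 5 arrays and 0.625 for 6), where chance gives 2.9. Cox4i1 at E13 had array 37 high (8684 beside 8244, ratio 0.848), and Sdhb at E16 had array 95 high (2419 beside 1735, ratio 0.626). Cox7a2 at E16 had array 11 low (510.4 beside 673.6, ratio 0.669), and Uqcrc1 at E16 had array 97 low (2094 beside 2740, ratio 0.632). The median deviation of the assembly factors at E16 was apart on array 11 (-0.31 beside -0.03, ratio 0.733). Cox6b2, outside the main comparison because no E16 array detected it, was on average at least 1.92-fold higher at E13, near background and by a bound set by detection.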

How the results depend on the processing

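One respiratory chain gene was called in the fit as reported. The count was 2 with detection in 1 stage or no detection filter (Cox6b2 with Ndufv3, where the E16 values of Cox6b2 are not detected and its call follows from the filter and the floor), 3 with no fold threshold (Ndufb7 and Atp5b with Ndufv3), and 0 with limma array weights, where 7 members had an adjusted p under 0.05 and Ndufv3 had -0.56 (adjusted p = 0.00232). Leaving out each array in turn gave 1 to 2, with 2 without E13 array 65 or E16 array 95 (Ndufb7 with Ndufv3), and 1 to 8 with no fold threshold. Ndufv3 was called in 24 of 25 settings, with log2 fold changes of -0.75 to -0.56. Over all probes the count was 1848, and 2943 with no fold threshold. Under median scaling the median over the members was -0.18, that of complex III was -0.12, and 90.1% of members were lower at E16, while the median of all probes was -0.01. With Xist detection as a covariate, Ndufv3 was the 1 gene called and the 1 member with an adjusted p under 0.05. The median over the members was then -0.09, and 75.3% of them were lower at E16. Of 23 single genes followed through 25 settings, 7 changed sign in at least 1, none of them while called.

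The labels do not say whether replicate numbers pair the samples. Deviations of same-numbered samples correlated at -0.25, 0.00781, -0.0617, 0.171 and -0.203, with no reference to set these values against, so pairing was not settled. With a replicate block on the authors' log2 values, 1 gene was called, as without it, and the median was -0.11. No slide is given, so no slide block was run. Probes near background, such as those of Ndufs1, Sdha and Uqcrfs1, bound what the arrays can show.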
